A study of Arabidopsis thaliana with 6 samples.

Results

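The 10 genes described here are iron uptake and iron-deficiency signalling genes of Arabidopsis thaliana, chosen by locus from 33977 gene IDs. They are IRT1 (AT4G19690), FRO2 (AT1G01580), FIT (AT2G28160), BHLH38 (AT3G56970), BHLH39 (AT3G56980), BHLH100 (AT2G41240), BHLH101 (AT5G04150), NAS4 (AT1G56430), FER1 (AT5G01600) and IMA1 (AT1G47400). Messenger RNA was sequenced from whole plants of the Col-0 accession, 3 CsCl samples grown on half-strength MS medium with 1.5 mM cesium chloride and 3 Mock samples grown on that medium alone. MS is a standard mineral medium, and cesium belongs to the alkali metals, as potassium does. All plants grew for 10 days at 22 °C with 16 h of light and 8 h of dark. No mutant, transgene or change in iron supply is given in the labels, so both groups had the iron of the same medium. The labels do not give separate sowings or plates for the samples of a group. The p-values therefore reflect only the spread among these 6 samples, part of which may be technical.

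Arabidopsis takes up iron by acidifying the soil, reducing ferric iron at the root surface with FRO2, and importing the ferrous ion through IRT1. The transcription factor FIT pairs with one of the subgroup Ib basic helix-loop-helix (bHLH) factors, BHLH38, BHLH39, BHLH100 and BHLH101, to switch on IRT1 and FRO2. Upstream, bHLH factors of subgroup IVc activate the Ib genes, the E3 ligase BTS marks the IVc factors for degradation, and small peptides of the IMA family bind BTS and its relatives. Nicotianamine synthases such as NAS4 make a metal chelator that carries iron between tissues, and the plastid ferritin FER1 stores iron and is known to be low when iron is scarce.

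The sequences of the regulators that varied most between libraries are shown first. BHLH38 and BHLH39 are tandem genes on the minus strand of chromosome 3, 1144 bases apart, and their exons align over 807 bases at 83.6% identity. BHLH100 and BHLH101 lie alone on chromosomes 2 and 5. The 250 bases before each gene's start (RefSeq annotation of TAIR10.1, minus strand, 5′ to 3′) are given because these 4 genes varied in a similar way. All 4 lay above their own geometric mean over the libraries in CsCl replicate 1 and Mock replicate 1. They lay below it in CsCl replicate 2 and in Mock replicates 2 and 3. In CsCl replicate 3 BHLH39 lay just below it and the others above. Capitals mark CANNTG, the E-box that bHLH factors can bind, of which CACGTG, the G-box, is a special case.
BHLH38, chr3:21085246-21085495: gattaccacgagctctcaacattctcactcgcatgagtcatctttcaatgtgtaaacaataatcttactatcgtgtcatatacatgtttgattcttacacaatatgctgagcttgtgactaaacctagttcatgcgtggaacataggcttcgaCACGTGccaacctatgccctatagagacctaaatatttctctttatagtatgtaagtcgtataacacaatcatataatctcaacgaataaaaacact
BHLH39, chr3:21087711-21087960: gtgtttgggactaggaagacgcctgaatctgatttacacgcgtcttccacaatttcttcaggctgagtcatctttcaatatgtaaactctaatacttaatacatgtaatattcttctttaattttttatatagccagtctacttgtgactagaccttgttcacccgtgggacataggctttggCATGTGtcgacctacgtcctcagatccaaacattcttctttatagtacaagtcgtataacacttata
BHLH100, chr2:17199455-17199704: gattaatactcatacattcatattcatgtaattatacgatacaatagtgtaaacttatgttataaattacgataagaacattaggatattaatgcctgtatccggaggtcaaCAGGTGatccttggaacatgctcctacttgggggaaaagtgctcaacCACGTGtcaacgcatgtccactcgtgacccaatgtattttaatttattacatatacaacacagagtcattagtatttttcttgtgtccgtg
BHLH101, chr5:1139634-1139883: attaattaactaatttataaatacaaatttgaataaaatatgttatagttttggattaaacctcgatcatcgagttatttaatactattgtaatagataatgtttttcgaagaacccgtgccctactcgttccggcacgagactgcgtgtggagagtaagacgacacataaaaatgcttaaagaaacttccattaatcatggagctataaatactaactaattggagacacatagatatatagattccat
CACGTG stood 97 bases before the start of BHLH38 and 91 bases before that of BHLH100, and in neither of the other two windows. It occurs in 6.5% of the 250-base windows of 27443 protein-coding genes, and CANNTG in 55.3%. CANNTG occurred in the windows of BHLH38, BHLH39 and BHLH100, and had no match in that of BHLH101. Both motifs read the same on either strand.

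IMA1 and its neighbour IMA2 (AT1G47395) lie 1876 bases apart on the plus strand of chromosome 1, each with 50 codons before the stop. Their coding sequences show how close these copies are, which bears on how far their counts can be told apart. Capitals mark the bases of IMA2 that differ from IMA1.
IMA1, chr1:17385818-17385970: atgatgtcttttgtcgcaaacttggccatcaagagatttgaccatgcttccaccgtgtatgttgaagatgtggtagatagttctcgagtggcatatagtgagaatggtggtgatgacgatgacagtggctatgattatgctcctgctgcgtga
IMA2, chr1:17383117-17383269: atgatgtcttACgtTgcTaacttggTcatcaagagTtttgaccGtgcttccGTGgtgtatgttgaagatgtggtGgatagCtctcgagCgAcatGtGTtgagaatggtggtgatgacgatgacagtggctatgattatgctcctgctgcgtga
The coding sequences differ at 17 of 153 bases, and the stretch of 55 bases up to and including the stop codon is the same. Over their exons the best window of 100 aligned bases was 93% identical.

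The libraries held 32075069 to 44108369 counts with CsCl and 32694267 to 35442349 in Mock. Levels are given as CPM, which puts the counts of each library on a common size by TMM (a factor per library that corrects for composition), and each gene was tested with edgeR's quasi-likelihood test, adjusted over 21005 genes. Markers of root tissue, where most of the uptake genes act, were lower with CsCl for 6 of 15 genes and higher for none. These counts are at an adjusted p under 0.05, where 1.32% of all genes tested were lower and 0.843% higher. The summed level of the root markers was 4620 to 5193 CPM with CsCl, against 6028 to 6358 CPM in Mock. Most of that sum is PYK10, a root beta-glucosidase gene, with 4269 to 4807 CPM with CsCl and 5604 to 5941 CPM in Mock, and the other root markers summed to 338 to 387 CPM with CsCl and 417 to 448 CPM in Mock. The count of 6 was 2 with total counts only, 3 with the replicate number as a block, 1 when CsCl replicate 2 was left out, 2 for CsCl replicate 3 and 3 for either Mock replicate 2 or Mock replicate 3. It was 4 without Mock replicate 1, 5 with upper-quartile scaling or without CsCl replicate 1, and 7 with no filter. At an unadjusted p under 0.05, 7 root markers were lower and 1 higher, against 7.75% and 6.67% of all genes tested. The higher gene was ESB1, which had 20, 19 and 30 counts with CsCl and 14, 9 and 8 counts in Mock. Of 8 leaf markers 0 passed the edgeR test (1 was higher at an unadjusted p under 0.05, and DESeq2 and limma-voom gave 0), with sums of 38230 to 40040 CPM with CsCl and 38980 to 43370 CPM in Mock. No marker of either list was at 0 in any library. Of the 15 root markers 13 had a log2 fold change below 0 and 2 above 0, ESB1 and SHR. SHR stood at 0.20 and SCR at -0.051 (edgeR adjusted p = 0.445 and 0.753). In whole plants, fewer root cells, less RNA per root cell and lower expression of the marker genes themselves cannot be told apart. Their part in the levels below was not tested.

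Of the 10 genes, 0 passed the edgeR test in either direction, against 2.16% of all genes tested (0.843% higher and 1.32% lower). All 10 were abundant enough to be tested. At an unadjusted p under 0.05, 1 was higher (BHLH100) and 1 lower (FIT), against 14.4% of all genes (6.67% higher and 7.75% lower). DESeq2 and limma-voom likewise called 0 of the 10. Over all genes 177 were higher and 277 lower, or 198 higher and 180 lower with total counts only as scaling, under which the 10 genes also gave 0 calls. The median log2 fold change of the 10, CsCl over Mock, was 0.15, against 0.0052 for all genes tested. In 1 gene, FIT, the CsCl and Mock libraries did not overlap, against 19.8% of all genes tested.

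The structural genes of uptake stood at nearly equal whole-plant levels in both groups, while 6 of the 15 root markers were lower with CsCl. Whether their levels within root tissue were equal was not tested. IRT1, the high-affinity ferrous iron importer of the root epidermis, had 78.0, 70.0 and 73.3 CPM with CsCl and 68.9, 81.4 and 67.9 CPM in Mock. The highest and the lowest of these 6 values were both Mock libraries. Its log2 fold change was 0.020 ± 0.074 (SE; edgeR adjusted p = 0.935), with a 95% interval of -0.14 to 0.18. FRO2, the ferric chelate reductase, had 54.8, 45.9 and 50.9 CPM with CsCl, against 51.7, 45.8 and 50.6 CPM in Mock. The groups overlapped over almost their whole range, with a log2 fold change (CsCl over Mock) of 0.033 ± 0.074 (edgeR adjusted p = 0.887; 95% interval -0.13 to 0.19). Their tandem neighbours were less abundant. IRT2 (AT4G19680), a related importer 2505 bases away, averaged 9.66 ± 1.85 CPM with CsCl and 11.3 ± 2.04 CPM in Mock (SD, n = 3 each; edgeR adjusted p = 0.523). FRO1 (AT1G01590), 1067 bases from FRO2, had 8, 2 and 13 counts with CsCl and 14, 5 and 16 counts in Mock.

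FIT, the factor that activates IRT1 and FRO2 in the root, was the 1 gene of the 10 whose groups did not overlap. It had 5.43, 6.19 and 6.10 CPM with CsCl, against 6.27, 7.76 and 7.75 CPM in Mock. All 3 CsCl libraries lay below the Mock ones, the gap between the nearest libraries being small. The log2 fold change was -0.30 ± 0.13 (edgeR adjusted p = 0.311; 95% interval -0.57 to -0.019), so the difference did not pass the test. Among all genes 9.75% were separated in this direction. Of the 15 root markers 6 were lower with CsCl as well, and their part in the level of FIT was not tested.

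**Figure D1:**
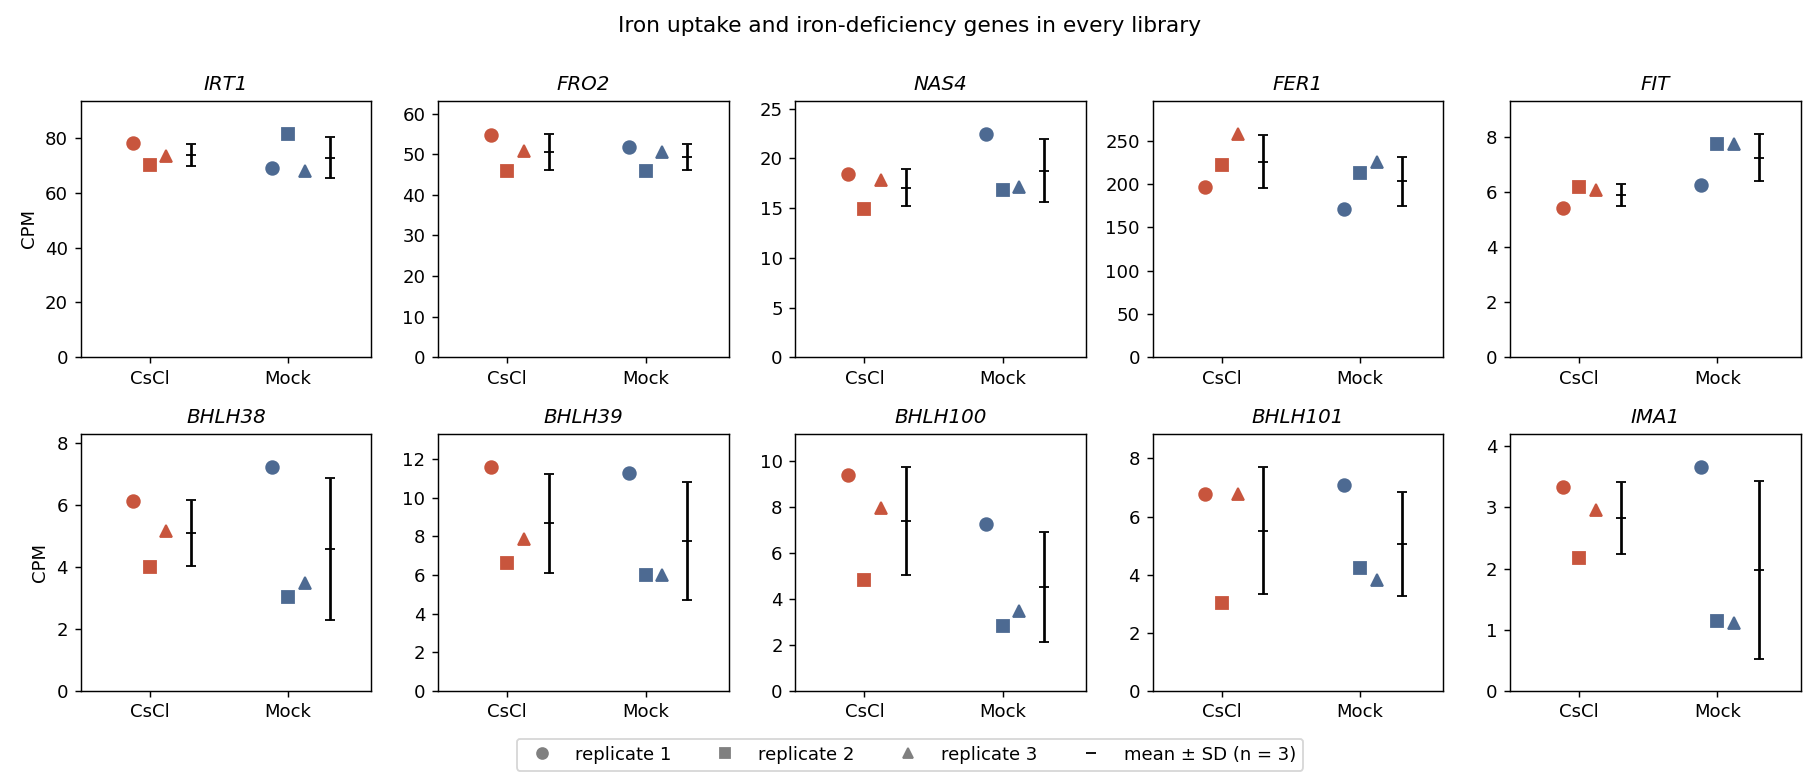
Level of each of the 10 genes in CPM (vertical axes, each starting at 0) in the 3 CsCl and 3 Mock libraries, with the mean ± SD beside the points. IRT1 and FRO2 overlap closely, and FIT is lower in every CsCl library. For the bHLH Ib genes and IMA1 the library labelled Mock replicate 1 stands above the other Mock libraries. The CsCl libraries spread as well, and in BHLH101 CsCl replicate 2 is the lowest library of all.

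The 4 bHLH Ib genes, the partners of FIT, spread widely within each group. BHLH38 had 6.14, 4.01 and 5.15 CPM with CsCl and 7.22, 3.04 and 3.49 CPM in Mock. BHLH39 had 11.6, 6.65 and 7.84 CPM with CsCl and 11.3, 6.02 and 5.99 CPM in Mock. In both genes CsCl replicate 1 and Mock replicate 1 were the 2 highest libraries, and Mock replicates 2 and 3 the 2 lowest. BHLH101 had 6.76, 3.01 and 6.78 CPM with CsCl and 7.10, 4.21 and 3.82 CPM in Mock, so that CsCl replicate 2 was the lowest of all. The log2 fold changes of these 3 genes were 0.15 ± 0.27, 0.16 ± 0.23 and 0.14 ± 0.28 (SE; edgeR adjusted p = 0.846, 0.819 and 0.874), and each turned sign without Mock replicate 3.

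BHLH100 had the highest log2 fold change of the 10, though it did not pass the test. It had 9.38, 4.81 and 7.98 CPM with CsCl, against 7.25, 2.80 and 3.47 CPM in Mock. Mock replicate 1 lay above CsCl replicate 2, so the groups overlapped. The log2 fold change was 0.72 ± 0.29 (edgeR adjusted p = 0.276; 95% interval 0.087 to 1.35). IMA1, the peptide gene, had 3.33, 2.18 and 2.96 CPM with CsCl and 3.66, 1.14 and 1.12 CPM in Mock, which are 108, 76 and 134 counts against 120, 38 and 38 counts. In IMA1, unlike BHLH100, Mock replicate 1 was the highest library of all, and Mock replicates 2 and 3 were the lowest. The log2 fold change of IMA1 was 0.52 ± 0.37 (edgeR adjusted p = 0.569).

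Mock replicate 1 stood apart from the other two Mock libraries in these 5 genes together. Its level was 2.07-fold that of the higher of the other two in BHLH38, 1.88-fold in BHLH39, 2.09-fold in BHLH100, 1.69-fold in BHLH101 and 3.20-fold in IMA1. Among all genes tested, 2.02% were at least 1.5-fold higher in Mock replicate 1 than in both other Mock libraries. None of the 10 was as far below, against 1.64% of all genes. In none of the other 5 libraries was any of the 10 genes so far above the rest of its group. CsCl replicate 2 was at least 1.5-fold below both other CsCl libraries in 2 of the 10, BHLH100 and BHLH101, against 1.7% of all genes. In the summed root markers Mock replicate 1, at 6266 CPM, lay between the other two Mock libraries, at 6028 and 6358 CPM, and without PYK10 it was the highest, at 448 CPM, against 424 and 417 CPM. In the summed leaf markers it was the lowest of the 3, at 38980 CPM, against 39830 and 43370 CPM.

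The difference between the groups in these genes depends on Mock replicate 1. That library was singled out because the same genes were high in it, so leaving it out raises their fold changes by construction, and the values without it are a description and no separate support. Without it, BHLH100 and IMA1 passed the test as higher with CsCl. BHLH100 then stood at 1.24 ± 0.24 on the log2 scale (SE; edgeR adjusted p = 0.00978) and IMA1 at 1.32 ± 0.27 (edgeR adjusted p = 0.0143), a 2.35-fold and a 2.49-fold difference over 3 CsCl and 2 Mock libraries. In that comparison 2.64% of all genes tested were called, 1.09% higher and 1.55% lower, and none of the 10 was lower. BHLH38 stood at 0.64 ± 0.20, BHLH39 at 0.52 ± 0.19 and BHLH101 at 0.46 ± 0.26 (edgeR adjusted p = 0.112, 0.180 and 0.430). Leaving out any other single library gave an adjusted p of 0.222 to 0.560 for BHLH100 and of 0.613 to 0.845 for IMA1. Over all alternatives, the adjusted p of BHLH100 ran from 0.00978 to 0.637 and that of IMA1 from 0.0143 to 0.845. IRT1, FRO2, NAS4 and FER1 lay between -0.019 and 0.066 without Mock replicate 1, and FIT at -0.39 ± 0.13 (edgeR adjusted p = 0.148).

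**Figure D2:**
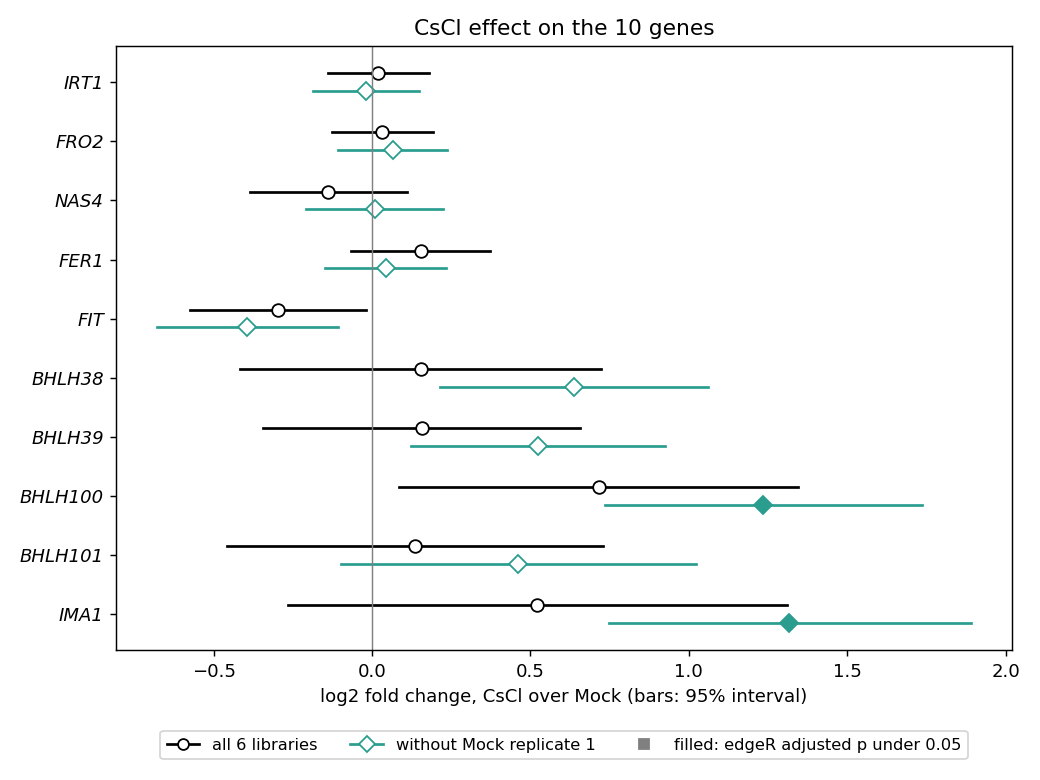
Log2 fold change, CsCl over Mock (horizontal axis), of the 10 genes with 95% intervals from edgeR, for all 6 libraries (circles) and without Mock replicate 1 (diamonds). With all libraries no symbol is filled (no adjusted p under 0.05), and without Mock replicate 1 BHLH100 and IMA1 are filled, at 1.24 and 1.32.

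IMA2, next to IMA1, gave the same order of libraries within Mock. It had 7.72, 4.18 and 7.49 CPM with CsCl, against 6.18, 3.07 and 2.94 CPM in Mock, with a log2 fold change (CsCl over Mock) of 0.67 ± 0.27 (edgeR adjusted p = 0.263) and of 1.11 ± 0.23 without Mock replicate 1 (edgeR adjusted p = 0.0167). IMA3 (AT2G30766), a further member of the peptide family on chromosome 2, had 10.4, 6.22 and 8.09 CPM with CsCl and 14.6, 6.59 and 5.61 CPM in Mock. Its Mock replicate 1 was the highest of the 6 libraries, and its log2 fold change was -0.12 ± 0.28 with all libraries and 0.43 ± 0.18 without that one (edgeR adjusted p = 0.895 and 0.264). Besides these 2 peptide genes, none of the 61 tested genes of a wider iron list was at least 1.5-fold higher in Mock replicate 1 than in both other Mock libraries.

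**Figure D3:**
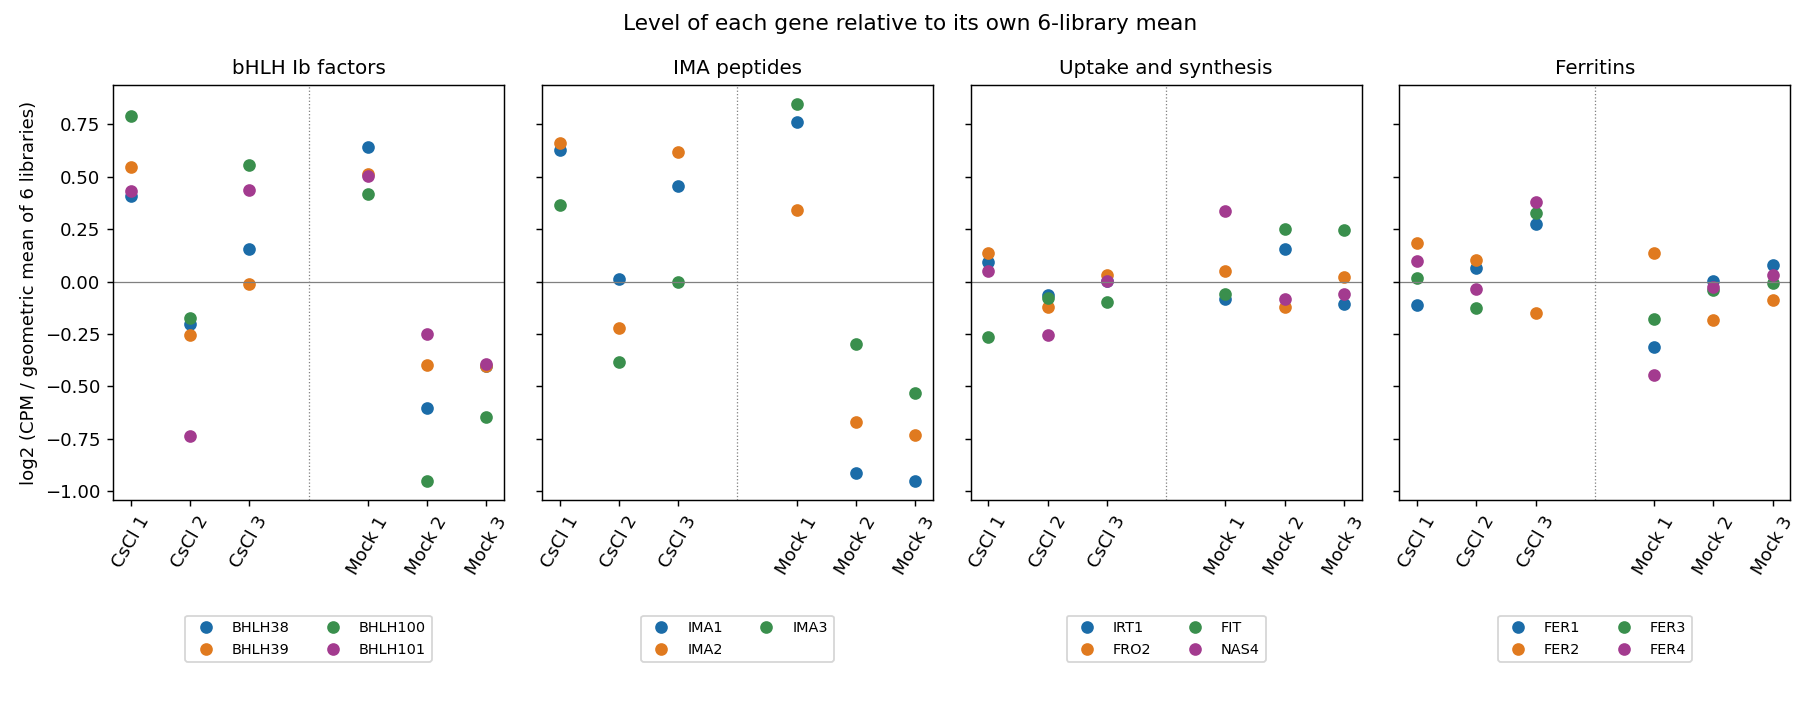
Level of each gene as the log2 of its CPM over its own geometric mean of the 6 libraries (vertical axis), by library, for the bHLH Ib genes, the IMA peptide genes, the uptake and synthesis genes, and the ferritins. The bHLH Ib and IMA genes are above 0 in Mock replicate 1 and below 0 in Mock replicates 2 and 3, while IRT1, FRO2 and FIT stay between -0.26 and 0.25. FER1, FER3 and FER4 are lowest in Mock replicate 1, whereas FER2 is higher there than in the other Mock libraries.

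NAS4 and the ferritin genes FER1, FER2, FER3 and FER4 differed little between the groups, and none of them passed the edgeR test. NAS4 had 18.4, 14.9 and 17.8 CPM with CsCl, against 22.5, 16.8 and 17.1 CPM in Mock, where replicate 1 was again the highest. Its log2 fold change was -0.14 ± 0.12 (edgeR adjusted p = 0.643). FER1, the most abundant of the 10, had 197, 223 and 258 CPM with CsCl, against 171, 213 and 225 CPM in Mock. Mock replicate 1 was the lowest of the 6, at 0.782 of the mean of the other two Mock libraries, and the groups overlapped (log2 fold change 0.15 ± 0.10; edgeR adjusted p = 0.541; 95% interval -0.065 to 0.37). FER4 (AT2G40300), a ferritin of plastids and mitochondria, likewise had its lowest value in Mock replicate 1, with 23.9, 21.8 and 29.0 CPM with CsCl and 16.4, 21.9 and 22.8 CPM in Mock (log2 fold change 0.29 ± 0.12; edgeR adjusted p = 0.293). FER3 (AT3G56090) and FER2 (AT3G11050) had log2 fold changes of 0.16 and 0.089 (edgeR adjusted p = 0.503 and 0.857). FER3 was also lowest in Mock replicate 1, at 31.4 CPM. FER2 went the other way within Mock, with 4.36 CPM in replicate 1 against 3.49 and 3.73 CPM in replicates 2 and 3.

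Among the other nicotianamine synthases, NAS1 (AT5G04950) was the most abundant. It had 135, 141 and 138 CPM with CsCl, against 163, 158 and 154 CPM in Mock, with no overlap and a change of -0.20 ± 0.055 in log2 units (edgeR adjusted p = 0.0857). DESeq2 called it lower (adjusted p = 0.0244). NAS2 (AT5G56080) and NAS3 (AT1G09240) had log2 fold changes of -0.027 and 0.15 (edgeR adjusted p = 0.943 and 0.843).

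Levels of the 10 genes were ranked per kilobase of exon, since longer transcripts give more counts. FER1 stood first, at 159 ± 21.5 CPM per kb with CsCl and 143 ± 19.9 CPM per kb in Mock (SD, n = 3 each). IRT1 followed at 47.2 ± 2.58 CPM per kb with CsCl and 46.5 ± 4.79 in Mock, then FRO2 at 17.7 ± 1.56 with CsCl and 17.3 ± 1.10 in Mock, and NAS4 at 11.8 ± 1.30 with CsCl and 13.0 ± 2.21 in Mock. These 4 were separated from their neighbours by more than their SD. The 5 transcription factors and IMA1 lay lower, from 3.62 ± 0.758 (IMA1) to 7.15 ± 2.12 (BHLH39) CPM per kb with CsCl and from 2.53 ± 1.87 (IMA1) to 6.39 ± 2.52 (BHLH39) CPM per kb in Mock. Neighbours in this lower range did not differ beyond their spread, apart from the low SD of FIT, at 4.28 ± 0.298 CPM per kb with CsCl and 5.26 ± 0.621 in Mock.

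In the wider iron list of 65 further genes, 61 could be tested, and 1 was higher and 1 lower with CsCl, against 0.843% higher and 1.32% lower among all genes tested, so that the calls are near that background. Its median log2 fold change stood at 0.036, against 0.0052 for all genes tested, and 8 members were higher and 7 lower at an unadjusted p under 0.05, against 6.67% and 7.75% of all genes. The counts by role are read against the same shares. CYP82C4 (AT4G31940), a cytochrome P450 that hydroxylates the iron-mobilising coumarin fraxetin, rose. It had 47.8, 40.4 and 48.8 CPM with CsCl, against 34.5, 35.3 and 34.0 CPM in Mock, with no overlap and a log2 fold change (CsCl over Mock) of 0.40 ± 0.075 (edgeR adjusted p = 0.0109). The call was lost without CsCl replicate 1 (adjusted p = 0.0556) or CsCl replicate 3 (adjusted p = 0.0805). YSL2 (AT5G24380), a transporter of the yellow stripe family that carries metal-nicotianamine complexes, fell. It had 77.7, 77.3 and 75.5 CPM with CsCl, against 98.8, 95.5 and 108 CPM in Mock, a difference of -0.39 ± 0.061 on the log2 scale (edgeR adjusted p = 0.00316). Its call held in all 17 alternatives.

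**Figure D4:**
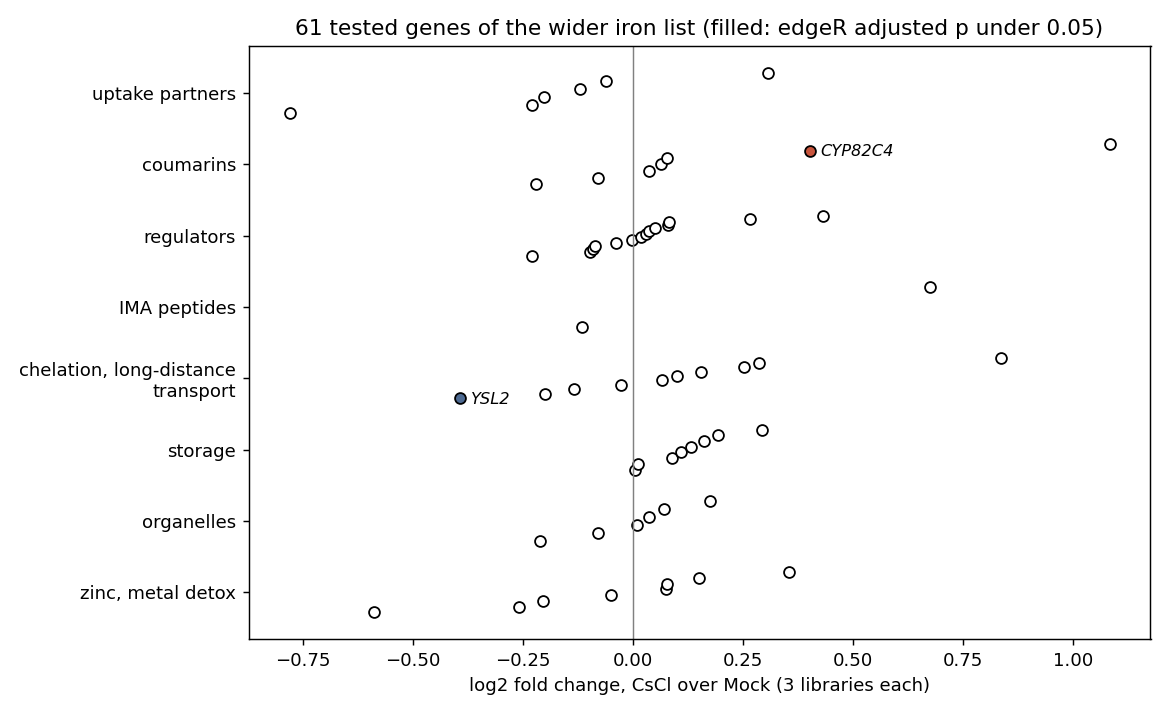
Log2 fold change, CsCl over Mock (horizontal axis), of the 61 tested genes of the wider iron list, in rows by role, 1 point per gene. CYP82C4 at 0.40 and YSL2 at -0.39 are the 2 filled points (edgeR adjusted p under 0.05), and no other gene passed.

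By role, 0 of 6 uptake partners passed the edgeR test (1 was higher and 1 lower at an unadjusted p under 0.05, 1 was called by DESeq2 and 0 by limma-voom). The closest was NRAMP1 (AT1G80830), a manganese and iron transporter of the root, which had 39.2, 40.0 and 42.2 CPM with CsCl and 28.8, 35.3 and 34.1 CPM in Mock (log2 fold change 0.31 ± 0.078; edgeR adjusted p = 0.0614). The CsCl libraries all lay above the Mock ones, and the gene passed under DESeq2, with robust estimation, with total counts only and with no filter. The proton pump gene AHA7 (AT3G60330) and the reductase gene FRO3 (AT1G23020) had log2 fold changes of -0.20 and -0.12 (edgeR adjusted p = 0.203 and 0.519). Of 7 tested coumarin genes, CYP82C4 passed (2 were higher and 0 lower at an unadjusted p under 0.05, and DESeq2 and limma-voom called CYP82C4 alone). S8H (AT3G12900), which makes fraxetin from scopoletin, had 64, 38 and 94 counts with CsCl and 34, 29 and 18 counts in Mock, with no overlap and a log2 fold change (CsCl over Mock) of 1.08 ± 0.33 (edgeR adjusted p = 0.127). F6'H1 (AT3G13610), the enzyme that makes the scopoletin precursor, stood at -0.22 (edgeR adjusted p = 0.376).

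None of 14 tested regulators passed the edgeR test (1 at an unadjusted p under 0.05, and 0 with DESeq2 and limma-voom). That 1 was GRF11 (AT1G34760), a 14-3-3 protein gene, at -0.23 ± 0.081 on the log2 scale (edgeR adjusted p = 0.197). IDF1 (AT4G30370), the RING E3 ligase that degrades IRT1, and BHLH115 (AT1G51070), a subgroup IVc factor, stood at 0.43 and 0.083 (edgeR adjusted p = 0.506 and 0.562). Of the 10 chelation and long-distance transport genes YSL2 passed. At an unadjusted p under 0.05, 2 were higher and 3 lower, against 6.67% and 7.75% of all genes tested. DESeq2 called YSL2, NAS1 and FPN2, and limma-voom called YSL2 alone. FPN2 (AT5G03570), a vacuolar metal transporter, stood next to YSL2 in the edgeR test. It had 104, 93 and 129 counts with CsCl, against 44, 55 and 64 counts in Mock, with no overlap and a log2 fold change (CsCl over Mock) of 0.84 ± 0.21 (edgeR adjusted p = 0.0549). It, too, passed under DESeq2, with robust estimation, with total counts only and with no filter.

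Of 8 tested storage genes 0 passed with edgeR (2 at an unadjusted p under 0.05, and 0 with DESeq2 and limma-voom), with NRAMP4 (AT5G67330), which releases iron from the vacuole, at 0.19 (log2; edgeR adjusted p = 0.228). The fold changes of these 8 had a median of 0.12 and were above 0, as were those of 10799 of all 21005 genes tested, and this tally of signs was not tested. Of 6 organelle genes 0 passed (1 at an unadjusted p under 0.05, and 0 with DESeq2 and limma-voom): the chloroplast permease gene PIC1 (AT2G15290) stood at -0.21, the mitochondrial carrier gene MIT1 (AT2G30160) at 0.18 and the ferric reductase gene FRO6 (AT5G49730) at 0.069. Of 8 zinc and metal detoxification genes 0 passed (1 at an unadjusted p under 0.05, and 0 with DESeq2 and limma-voom), with MTP3 (AT3G58810) at -0.21, HMA3 (AT4G30120) at -0.59 and IRT3 (AT1G60960) at 0.074. The 4 list members that were too low to test were CIPK11, with 0 counts in every library, VIT1, MYB72 and BHLH19. BHLH19 (AT2G22760), named after its values were seen, had 0, 0 and 2 counts with CsCl and 8, 6 and 6 counts in Mock.

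The genes most like the mean profile of the 4 bHLH Ib genes were sought by Pearson's r of log2 CPM over the 6 libraries, among 15162 genes. The first 5 were PRS2 (AT1G32380, r = 0.994), DOX1 (AT3G01420, r = 0.992), AT2G18465 (r = 0.986), CKA3 (AT2G23080, r = 0.986) and EMB3144 (AT5G64580, r = 0.981). DOX1, an alpha-dioxygenase gene, had 591, 475 and 535 CPM with CsCl and 597, 458 and 471 CPM in Mock. Pearson's r leaves out how far a gene moves. All 5 moved less than the bHLH Ib genes, and PRS2, AT2G18465, CKA3 and EMB3144 much less. DOX1 ran from 458 to 597 CPM, against 5.99 to 11.6 CPM for BHLH39. PRS2 ran from 18.8 to 21.0 CPM and EMB3144 from 67.4 to 70.6 CPM over the 6 libraries. With 6 libraries and so many genes, values this high are a description only. The iron genes highest in that order, picked out once their values were known, were the E3 ligase gene BTS (AT3G18290), at rank 25 with r = 0.948, and the phloem iron transporter gene OPT3 (AT4G16370), at rank 43 with r = 0.929. BTS had 130, 111 and 114 CPM with CsCl and 133, 101 and 102 CPM in Mock. OPT3 had 117, 98.5 and 99.8 CPM with CsCl and 117, 85.8 and 91.8 CPM in Mock. In both genes Mock replicate 1 was above Mock replicates 2 and 3, by 1.31-fold and 1.27-fold over the higher of them. The profile they were picked by is itself high in Mock replicate 1, so this follows from the choice and is no separate support. Iron genes stood at the other end of the order as well, with FRO7 (AT5G49740) at rank 15008 and r = -0.861.

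Where genes overlap, reads cannot be assigned with certainty, since the strand setting of the counting is not given in the sources used here. The exons of BHLH38 overlap those of PIP5K4 (AT3G56960), on the opposite strand, over 386 of 1082 bases. PIP5K4 had 6.88, 5.13 and 5.92 CPM with CsCl and 4.57, 5.02 and 4.49 CPM in Mock. BHLH101 overlaps the far more abundant glutamate synthase gene GLU1 (AT5G04140), likewise on the opposite strand, over 79 bases. GLU1 had 1904, 1935 and 1710 CPM with CsCl and 1714, 1669 and 1823 CPM in Mock. What reads of PIP5K4 and GLU1 add to the counts of BHLH38 and BHLH101 was not tested. FER1 shares no exon base with the RNA gene that overlaps it. The RefSeq model of IMA3 shares 330 of its 1995 exon bases with CYP71A13 on the opposite strand, which had 0 counts in 5 of the 6 libraries. It also shares 78 with AT2G30760, likewise on the opposite strand, which had 2, 2 and 5 counts with CsCl and 1, 11 and 9 counts in Mock. No window of 100 aligned bases at 95% identity or more was found between any of the 10 genes and another gene, apart from the overlap of BHLH38 with PIP5K4. For IMA3, which is outside the 10, such windows were found with 2 genes, CYP71A13 among them. What shared reads add to the counts of IMA3 was not tested.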

How the data were processed

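The authors deposited 1 file of raw counts per gene for each of 6 samples, with no normalization. FastQC, STAR, featureCounts, edgeR and the TAIR10 build are named in the submitters' processing notes, without versions. The library kit kept strand, per the labels' protocols. How strand and multi-mapped reads were handled in counting, and which annotation was used, is not given in the sources used here. Between 65.5% and 73.4% of the values from 1 to 50 were even, so low counts may count both mates and rest on fewer fragments.

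The test was that of edgeR 4.0.16 (R 4.3.3): filterByExpr, TMM factors (0.961 to 1.03), quasi-likelihood fit with the group as its only term, and Benjamini-Hochberg adjustment over 21005 genes, with a threshold of 0.05. The script was tested on simulated data. Each SE was taken from the unshrunk coefficient and its F statistic. Alternatives used limma 3.58.1 and DESeq2 1.42.0. No pair of replicates was a copy (chi-square per gene 6.39 to 13.1, beyond sampling noise). Gene models and sequences are those of RefSeq for TAIR10.1, and all 10 loci matched it. Shared stretches were searched with BLAST 2.17.0.

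The members and lists were chosen with earlier results of these data known. The text names all 10 members, in each sublist of the wider list the genes past the test and the 3 with the smallest p, the closest relatives of the members, and the 5 genes most like the bHLH Ib profile (mean CPM of at least 5).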

Additional observations from a re-analysis of the deposited data

How the results depend on the processing

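Of the 10 members, 0 were called under most settings. With the replicate number as a block 1 was called higher, BHLH100 (adjusted p = 0.0495). Deviations from the group mean correlated at -0.163, 0.0464 and -0.0817 between same-numbered samples (numbers 1, 2 and 3). Pairs of unlike number ran from -0.188 to 0.25. With 3 samples per group these values cannot show whether same-numbered samples shared a batch. Leaving out 1 library gave 0 to 2 members higher, 2 only without Mock replicate 1. Over all genes 177 were higher and 277 lower. Leaving out 1 library gave 89 to 231 higher (89 without CsCl replicate 3, 92 without CsCl replicate 2, 113 without Mock replicate 2) and 90 to 330 lower (90 without CsCl replicate 2, 133 without CsCl replicate 3). With no filter 301 were higher and 518 lower, with total counts only 180 were lower, and with DESeq2 425 were lower; the cause was not tested. In the wider iron list 1 was higher and 1 lower; 3 were higher with total counts only, no filter, DESeq2 and robust edgeR, and 2 were lower with DESeq2. Leaving out 1 library gave 0 to 2 higher, 0 without CsCl replicate 1 or 3. Fold changes near 0 turned sign when 1 library was left out, with log2 ranges of -0.031 to 0.10 for IRT1, -0.030 to 0.097 for FRO2, -0.075 to 0.64 for BHLH38, -0.099 to 0.52 for BHLH39, -0.055 to 0.46 for BHLH101, -0.22 to 0.0087 for NAS4, -0.37 to 0.43 for IMA3, -0.0069 to 0.12 for FRO6, -0.13 to 0.041 for NAS2, -0.046 to 0.34 for NAS3 and -0.014 to 0.20 for DOX1. NAS2 stood at 0.012 with total counts only. Of the other fold changes of single genes under an alternative, 689 kept their direction and side of the threshold, 13 gained a call and 2 lost one. Counts halved and rounded down, chosen after seeing the data, changed no call of a member. The 95% intervals of BHLH38, BHLH39, BHLH101 and IMA1 included 0 with all libraries, with upper bounds of 0.72, 0.66, 0.73 and 1.31 on the log2 scale.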
